A study of Sus scrofa with 4 samples.

Results

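The mitochondrial ribosomal proteins were taken as every row of the deposited expression table whose gene symbol begins with MRPL or MRPS followed by a digit. The rule found 76 of 16026 genes, 48 with an MRPL symbol, for the large subunit, and 28 with an MRPS symbol, for the small subunit. They were measured by RNA sequencing of porcine induced pluripotent stem cells from the Bamei black pig, cells that were reprogrammed to an embryonic-like state, labelled with a development stage of 26.5 days. The comparison asked how their messenger RNAs differed when LIN28A, which binds RNA in embryonic and stem cells, was targeted by the short hairpin shLin28a (2 libraries, knockdown 1 and 2), against the Negative Control (2 libraries, control 1 and 2). The labels name neither a promoter nor a vector. The deposited table averages both knockdown libraries under a single construct name, and the labels do not say if any libraries are from separate cultures. The p-values therefore reflect only how these 4 libraries vary, and that variation may be technical.

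The mitochondrial ribosome translates the few messenger RNAs that the mitochondrial genome itself encodes, all of them subunits of the respiratory chain and the ATP synthase. Its ribosomal RNAs are made inside the organelle, but its proteins are encoded in the nucleus, made in the cytosol and imported. Many descend from bacterial ribosomal proteins, and others were added in the mitochondrial lineage, where they cover a shortened ribosomal RNA. The assembled particle holds its proteins in fixed proportion, most of them as a single copy, with the stalk protein MRPL12 as a known multi-copy exception.

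Summed expected counts were 11847343 and 7125640 in the controls, 8061417 in knockdown 1 and 2400985 in knockdown 2. LIN28A had 184 and 59 counts in the controls, 12 in knockdown 1 and 3 in knockdown 2. Knockdown 2 stood apart in several ways besides depth. Its 50 most abundant genes took 18.1% of the counts, against 13.1% to 13.3% in the other libraries. Summed over its 19 genes in the table, the fibroblast and mesenchymal marker list stood at 940 and 1270 FPKM in the controls. It stood at 977 in knockdown 1 and 2250 in knockdown 2. Most of each sum was the single gene VIM, at 791, 959, 735 and 1503 FPKM in the same order. In knockdown 2, 13 of 15 tested markers lay above both controls, where 40.0% of all tested genes did. FPKM counts sequenced fragments relative to transcript length and to the size of the library. Of the defining pluripotency markers, POU5F1 (43.4 and 37.7 FPKM in the controls, 41.4 in knockdown 1, 16.6 in knockdown 2) and SOX2 (91.9, 80.9, 109 and 53.5 in the same order) were present in every library. NANOG, with 2 entries, did not exceed 0.70 FPKM, and DPPA4, TDGF1, ZFP42 and UTF1 were not found under those symbols. Results are therefore given with and without knockdown 2.

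All 76 members were detected in all 4 libraries, and all passed the filter on low counts. The median count of a member was 412 and 237 in the controls, 260.5 in knockdown 1 and 46.5 in knockdown 2, so single values of the last library are the least precise. Averaged over the libraries, levels ran from 3.12 FPKM for MRPL36 to 79.0 FPKM for MRPL11, a 25.3-fold range. The middle of the distribution was much narrower, with quartiles of 18.5 and 40.7 FPKM and a median of 25.3. For 70 members the mean lay above 10.9 FPKM, the median of all tested genes. Large subunit genes ran over that whole range and small subunit genes from 7.99 to 68.0 FPKM, with medians of 26.8 and 24.5.

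The most abundant members included proteins of several regions of the particle. MRPL11, which forms the base of the stalk where translation factors bind, was at 84.3 and 98.9 FPKM in the controls, 81.3 in knockdown 1 and 51.5 in knockdown 2. MRPL37, a protein with no bacterial counterpart, had 89.3 and 84.1 FPKM in the controls, 89.0 in knockdown 1 and 50.6 in knockdown 2. MRPL17, with the controls first and knockdown 1 before knockdown 2 as in all lists of 4 values, had 75.8, 81.0, 80.3 and 59.3 FPKM. In each of these genes knockdown 1 was close to the controls and knockdown 2 was the lowest library. MRPL30 (95.5, 82.9, 73.3 and 37.8 FPKM) and MRPS15 (76.2, 89.4, 70.9 and 35.7 FPKM) completed the highest 5. MRPL12, the stalk protein, ranked 7 with 70.9, 60.5, 74.4 and 37.0 FPKM. At the other end, MRPL36, a short protein of the large subunit core, had 3.37, 3.54, 4.06 and 1.5 FPKM, the last resting on 3 counts. MRPL50 had 7.51, 5.98, 6.63 and 4.11 FPKM, and MRPS30 had 8.39, 10.3, 8.19 and 5.06 FPKM.

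**Figure D1:**
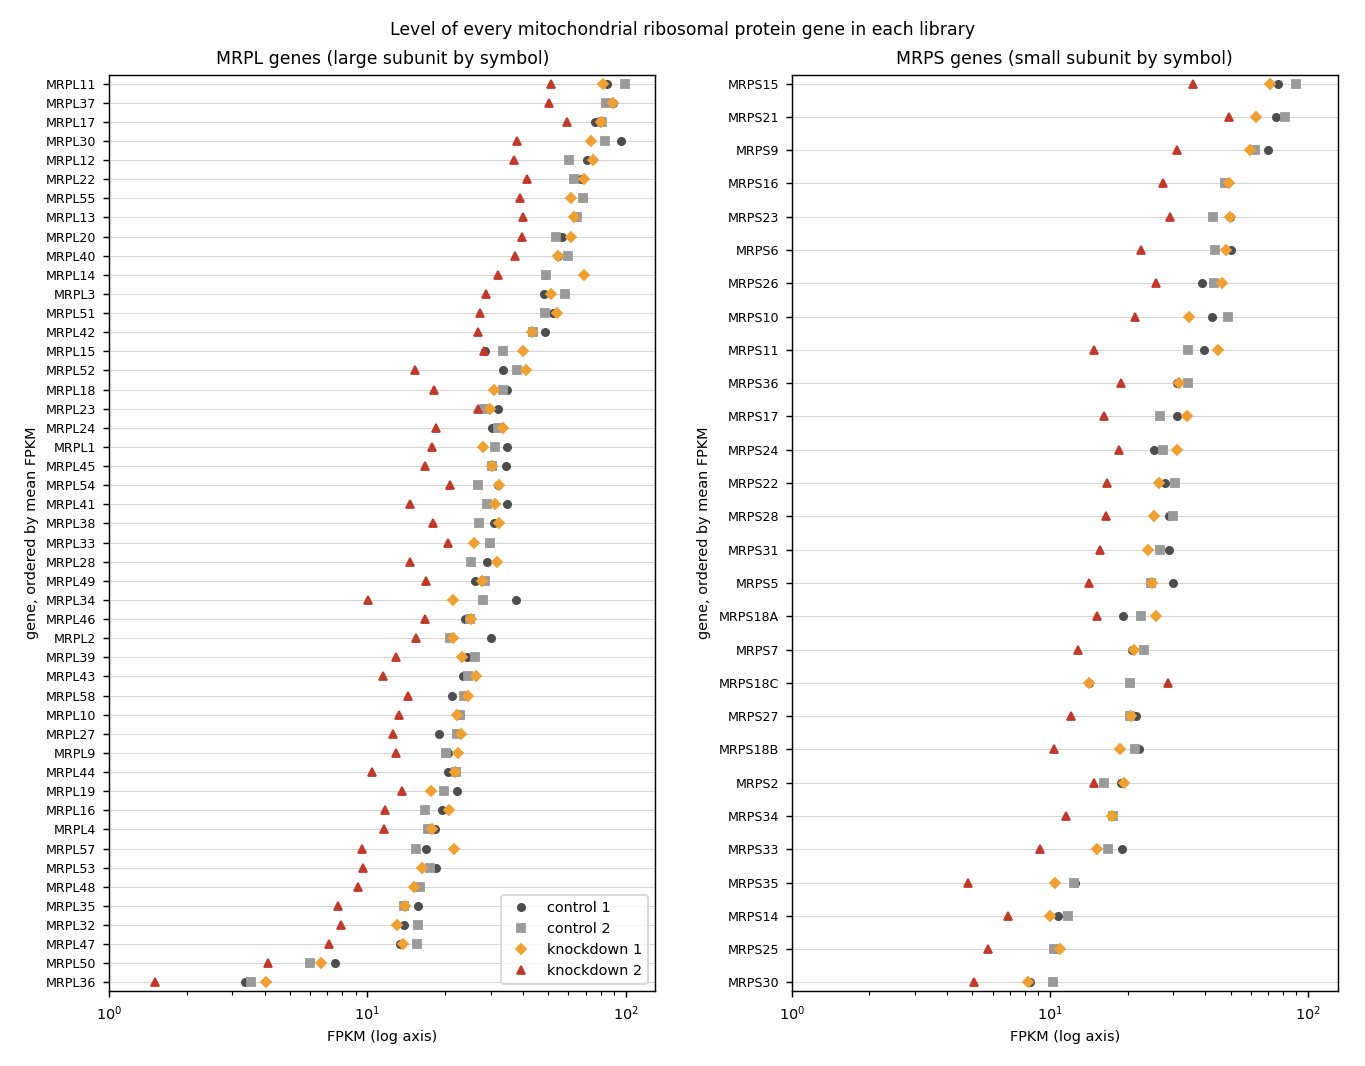
FPKM on a log axis of the 48 MRPL genes (left) and the 28 MRPS genes (right), ordered by their mean, with 1 point for each of the 4 libraries. The order of the genes is much the same in every library, and the points of knockdown 2 lie to the left of the others for nearly every gene, with MRPS18C as the exception.

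The order of the members was close to constant between libraries. Across the 76 genes, Spearman's rho of FPKM was 0.965 between the controls, 0.949 between control 1 and knockdown 1, and 0.885 between control 1 and knockdown 2. These are descriptions across genes that share their libraries. Members with longer transcripts tended to have lower FPKM (rho −0.50 with the length implied by count and FPKM), and the implied lengths ran from 376 to 3865 bases.

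No member passed the test between knockdown and control. With edgeR's quasi-likelihood test, fitted without pairing of libraries, and Benjamini-Hochberg adjustment over 11967 genes, 0 of 76 members were called at an adjusted p under 0.05, where 0.0% of all tested genes were called. The smallest adjusted p among members was 0.606. LIN28A itself was not called by this edgeR test (unadjusted p of 0.00158, adjusted p of 0.259). Its log2 fold change was −2.92 ± 0.49 (SE). At an unadjusted p under 0.05 there was 1 member, MRPL34, which was lower, where 3.45% of all genes were lower and 4.26% higher at that level. DESeq2 called 0 members and 1.16% of all genes. With limma on log2 FPKM, 0 members were called, and 0.00836% or 0.0167% of all genes with 1 or 0.1 added to each value. Most estimates were small against their error: 74 members lay within 0.5 of no change on the log2 scale, and for 50 the standard error was larger than the log2 fold change itself. A missed threshold with 2 libraries a group does not show that the levels were equal. In bulk RNA, fewer cells of a type and less RNA per cell cannot be told apart.

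The 2 knockdown libraries differed in how they stood to the controls. On counts scaled by TMM, a normalisation that balances the bulk of genes between libraries, the median member lay 0.00 from the control mean in knockdown 1 and −0.34 in knockdown 2, on the log2 scale. Over all tested genes these medians were 0.02 and −0.07. In knockdown 1, 25 of 76 members lay below both controls (33.1% of all tested genes did) and 29 lay above both (35.9% of all). In knockdown 2, 68 lay below both controls (47.3% of all tested genes did) and 4 above both (40.0% of all). Between the controls the median difference was 0.03. Members thus followed all genes in knockdown 1 and their median lay below that of all genes in knockdown 2.

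FPKM showed the same split on a different scale. The median member had 0.979 times the control mean in knockdown 1 and 0.576 times in knockdown 2, where 75 of 76 members were below the control mean. The summed FPKM of all members was 2630 and 2600 in the controls, 2590 in knockdown 1 and 1530 in knockdown 2. FPKM is scaled to the library total, and the median FPKM of all tested genes was itself lower in knockdown 2, at 8.53 against a lowest value of 11.05 in the other libraries. Members held 0.284% and 0.279% of all counts in the controls, 0.278% in knockdown 1 and 0.164% in knockdown 2.

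Fitted over both knockdown libraries, 60 members had a negative log2 fold change, where 48.8% of all tested genes did, and the median was −0.13 against 0.01 for all genes. Without knockdown 2 the median was −0.03 and 43 members were negative, with −0.02 and 53.0% over all genes. Without knockdown 1 it was −0.35 and 71 were negative, with −0.09 and 54.8% over all genes. In that last fit the spread comes from the 2 controls alone, and knockdown 2 is assumed to vary as they do. There edgeR called 0 members, with a smallest adjusted p of 0.0734, and 9.88% of all tested genes (0.772% of all tested genes were called lower). At an unadjusted p under 0.05, 10 members were lower and 1 higher, where 10.1% and 20.1% of all tested genes were. In 25 members both knockdown libraries lay below both controls and in 2 both lay above, where 22.9% and 18.8% of all tested genes did so. The part of depth, of the fibroblast markers and of the shift in abundant genes of knockdown 2 in these values was not tested.

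**Figure D2:**
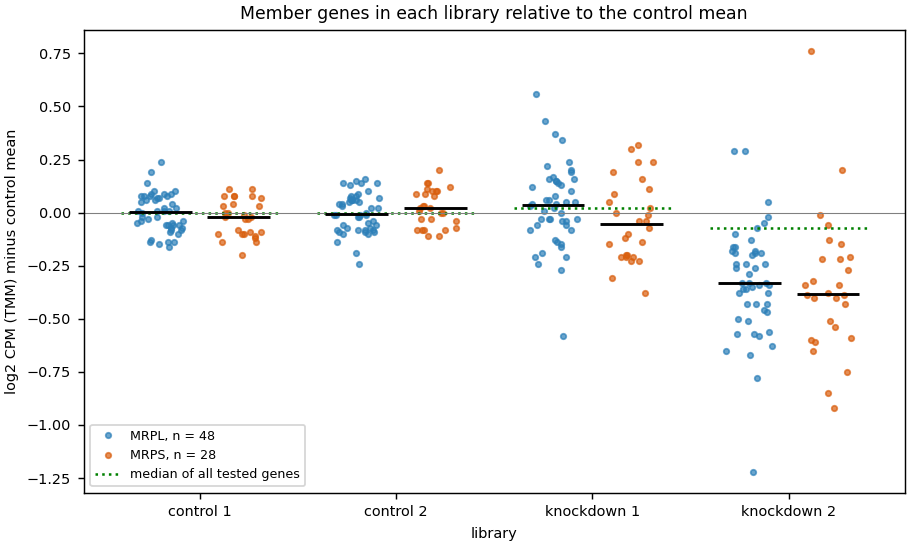
Log2 CPM (TMM) minus the control mean for each member in each library, MRPL genes in blue and MRPS genes in orange, with black bars at the subunit medians and a dotted line at the median of all tested genes. Knockdown 1 is centred near 0 for both subunits, while in knockdown 2 the medians are −0.33 and −0.38, below the −0.07 of all genes.

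The large and small subunits stood close together in every library. The median log2 fold change was −0.12 over the 48 MRPL genes and −0.17 over the 28 MRPS genes, with 37 and 23 negative. Relative to the control mean, MRPL genes had medians of 0.03 in knockdown 1 and −0.33 in knockdown 2, and MRPS genes −0.06 and −0.38. In knockdown 2, 44 of 48 MRPL and 24 of 28 MRPS genes lay below both controls, where 47.3% of all tested genes did. In knockdown 1, 12 MRPL genes lay below both controls and 21 above, while 13 MRPS genes lay below and 8 above. Of all tested genes, 33.1% lay below and 35.9% above in that library. With both knockdown libraries below both controls there were 12 of 48 MRPL and 13 of 28 MRPS genes, where 22.9% of all tested genes did so.

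The ratio of the subunits was nearly constant. Summed FPKM of MRPL genes was 1740 and 1700 in the controls, 1730 in knockdown 1 and 1020 in knockdown 2, and that of MRPS genes was 887, 896, 855 and 510. As a log2 ratio of large to small this gave 0.973 and 0.926 in the controls, 1.018 in knockdown 1 and 0.998 in knockdown 2. Both knockdown values lay above both control values, but the difference of the group means was 0.058, and 2 against 2 libraries cannot reach a p below 0.333 in a two-sided exact permutation test. Without the highest member of each subunit the ratios were 1.031, 0.991, 1.074 and 1.027, and the groups overlapped.

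The classes below follow the protein's place in the mammalian structure, so that MRPS18B counts as specific to mitochondria although it is a homologue of a bacterial protein. The 29 MRPL genes with a bacterial counterpart and the 19 that are specific to mitochondria both had a median log2 fold change of −0.12. Of the MRPS genes, 15 with a bacterial counterpart had a median of −0.21 and 10 specific to mitochondria one of −0.14. In knockdown 2, the 4 classes had medians between −0.33 and −0.40 relative to the control mean. Symbol and position in the particle disagree for 3 members. MRPS18A and MRPS30 belong to the large subunit in the mammalian structure, and MRPS36 is now known as a component of the oxoglutarate dehydrogenase complex. With the subunits assigned in that way, the medians were −0.12 and −0.16.

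The members spread little around their common median. The standard deviation of their log2 fold changes was 0.20, about the size of their median standard error of 0.23, and it was 0.71 over all tested genes. Most members lay above the median level of all tested genes, and no set of genes matched for level was compared. The fold change had no rank relation to level (rho 0.02) and a weak one to implied length (rho −0.26) across the 76 genes.

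**Figure D3:**
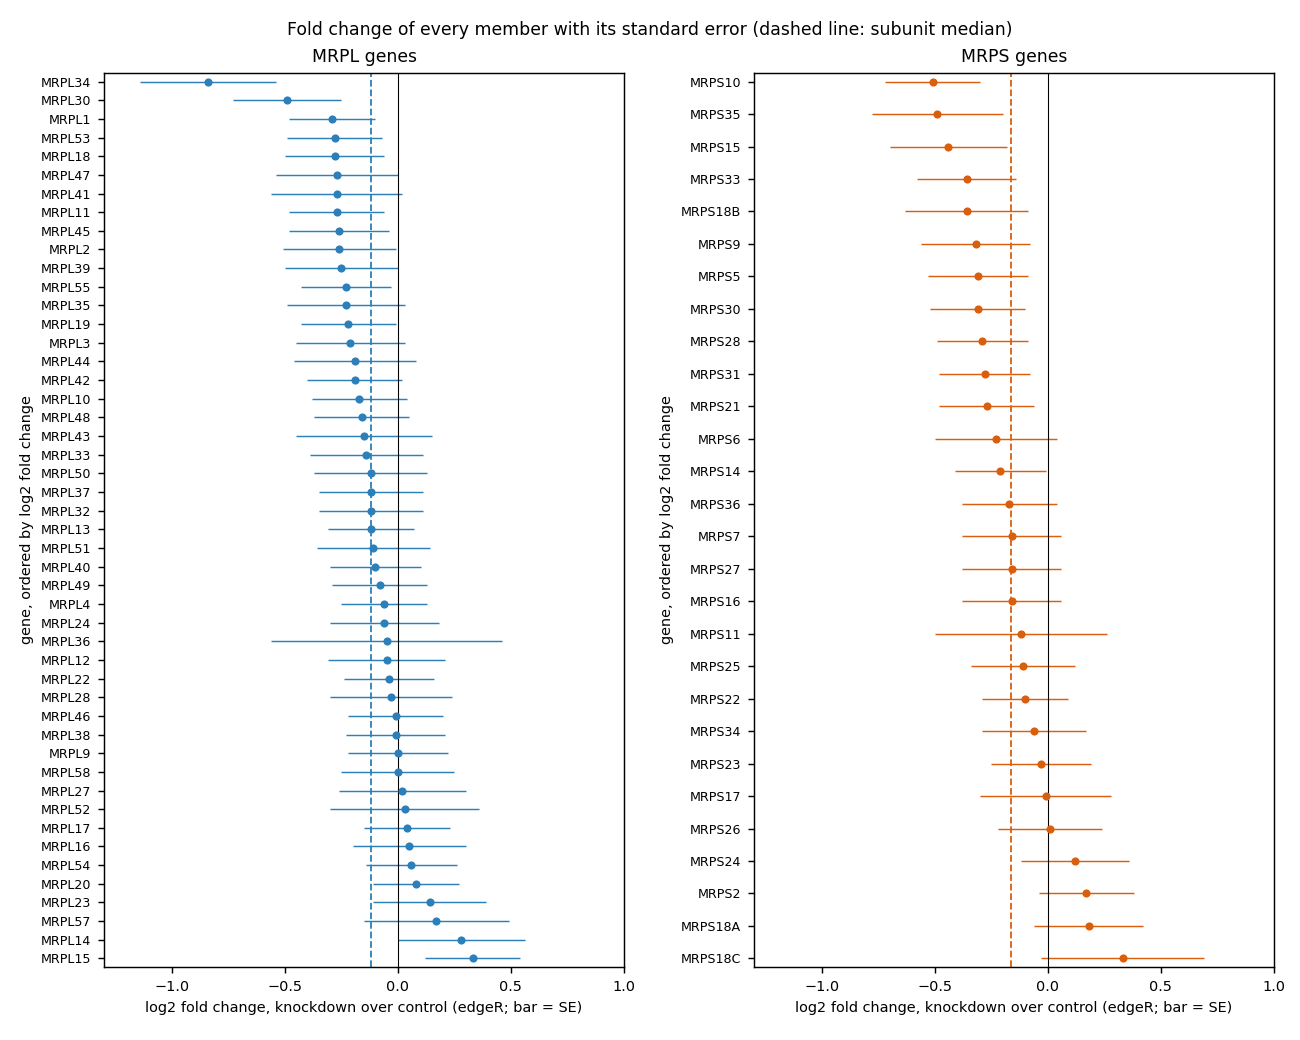
Log2 fold change of knockdown over control from edgeR with its standard error for each MRPL gene (left) and MRPS gene (right), ordered by value, with a dashed line at the subunit median. Most bars cross 0, and MRPL34 at −0.84 stands farthest from it.

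The lowest fold change belonged to MRPL34, a short basic protein of the large subunit with a bacterial counterpart, whose gene lies on chromosome 2 at 60377904 to 60378967 of Sscrofa11.1. It was at 37.6 and 27.9 FPKM in the controls, 21.4 in knockdown 1 and 10.04 in knockdown 2, so both knockdown libraries lay below both controls. Its counts were 329, 148, 127 and 18. In CPM, where every library total is set equal, control 1 was at 27.8 (95% exact Poisson interval 24.8 to 30.9) and control 2 at 20.8 (17.6 to 24.4), knockdown 1 at 15.8 (13.1 to 18.7) and knockdown 2 at 7.50 (4.44 to 11.8). The intervals cover counting error only. The control mean was 32.8 ± 6.82 FPKM (SD, n = 2), and the knockdown mean 15.7 ± 8.02 (SD, n = 2). The log2 fold change was −0.84 ± 0.30 (SE), with an unadjusted edgeR p of 0.0363 and an adjusted p of 0.606. It was −0.63 without knockdown 2 and −1.26 without knockdown 1.

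Other members at the low end were spread over both subunits. MRPS10, a protein of the small subunit head with a bacterial counterpart, was at 42.5 and 48.8 FPKM in the controls, 34.7 in knockdown 1 and 21.3 in knockdown 2, with a log2 fold change at −0.51 ± 0.21 (SE). MRPL30 followed with −0.49 ± 0.24 (SE), from the FPKM given above. MRPS35, which has no bacterial counterpart, was at 12.6, 12.4, 10.49 and 4.8 FPKM, and its log2 fold change −0.49 ± 0.29 (SE). MRPS15 had −0.44 ± 0.26 (SE). MRPS33, at 19.1, 16.8, 15.2 and 9.16 FPKM, had −0.36 ± 0.22 (SE). In all of these the knockdown libraries lay below both controls, with knockdown 1 nearer to them, and the edgeR adjusted p lay between 0.606 and 0.614.

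At the high end, MRPL15, a protein of the large subunit core with a bacterial counterpart, had the most positive log2 fold change, 0.33 ± 0.21 (SE), at an edgeR adjusted p of 0.619. It was at 28.4 and 33.6 FPKM in the controls, 39.9 in knockdown 1 and 28.3 in knockdown 2. On TMM-scaled counts it lay 0.37 and 0.29 above the control mean in the knockdown libraries, above both controls, but in FPKM knockdown 2 was at the level of control 1. MRPS2, also with a bacterial counterpart, was the other member above both controls on that scale, by 0.16 and 0.20, with 18.8, 16.2, 19.4 and 14.8 FPKM. The sign of its log2 fold change of 0.17 ± 0.21 (SE) turned with total counts and with limma on FPKM. MRPL14, which makes contact with the small subunit and binds the assembly factor MALSU1 before the subunits join, was at 48.6 and 49.1 FPKM in the controls. It stood at 69.1 FPKM in knockdown 1 and 32.1 in knockdown 2, above the controls in the one and below them in the other. MRPL57 showed the same split, with 16.8, 15.4, 21.7 and 9.54 FPKM. The log2 fold changes of these 2 genes, 0.28 ± 0.28 and 0.17 ± 0.32 (SE), became negative without knockdown 1 and with limma on FPKM.

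Mammals have 3 homologues of the bacterial small subunit protein S18, and the pig table held all of them. MRPS18C, which takes the bacterial position, was the member that stood highest in knockdown 2, with 14.2 and 20.4 FPKM in the controls, 14.1 in knockdown 1 and 28.7 in knockdown 2. MRPS18B, placed elsewhere on the small subunit, was at 22.1, 21.3, 18.6 and 10.4 FPKM. MRPS18A, placed in the large subunit, was at 19.2, 22.5, 25.8 and 15.1 FPKM. Relative to the control mean on TMM-scaled counts, knockdown 2 thus lay at 0.76, −0.60 and −0.01 for C, B and A, and knockdown 1 at −0.12, −0.21 and 0.32. The log2 fold changes were 0.33 ± 0.36, −0.36 ± 0.27 and 0.18 ± 0.24 (SE), and the edgeR adjusted p 0.746, 0.648 and 0.790. The log2 fold change of MRPS18C was −0.15 without knockdown 2, and that of MRPS18A turned negative with limma on FPKM and without knockdown 1.

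The value of MRPS18C in knockdown 2 has a limit in the counting. Its gene overlaps HELQ and ABRAXAS1 on chromosome 8, its counts were fractional (182.85, 142.17, 128.69 and 52.73), and the transcript length implied by count and FPKM was 1090 and 980 bases in the controls, 1130 in knockdown 1 and 766 in knockdown 2. The TMM-scaled counts, which do not use that length, gave the 0.76 in knockdown 2 and −0.12 in knockdown 1 stated above. Both overlapping genes were lowest in knockdown 2, with HELQ at 3.09, 2.69, 2.50 and 0.68 FPKM and ABRAXAS1 at 8.63, 7.79, 7.84 and 3.89.

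**Figure D4:**
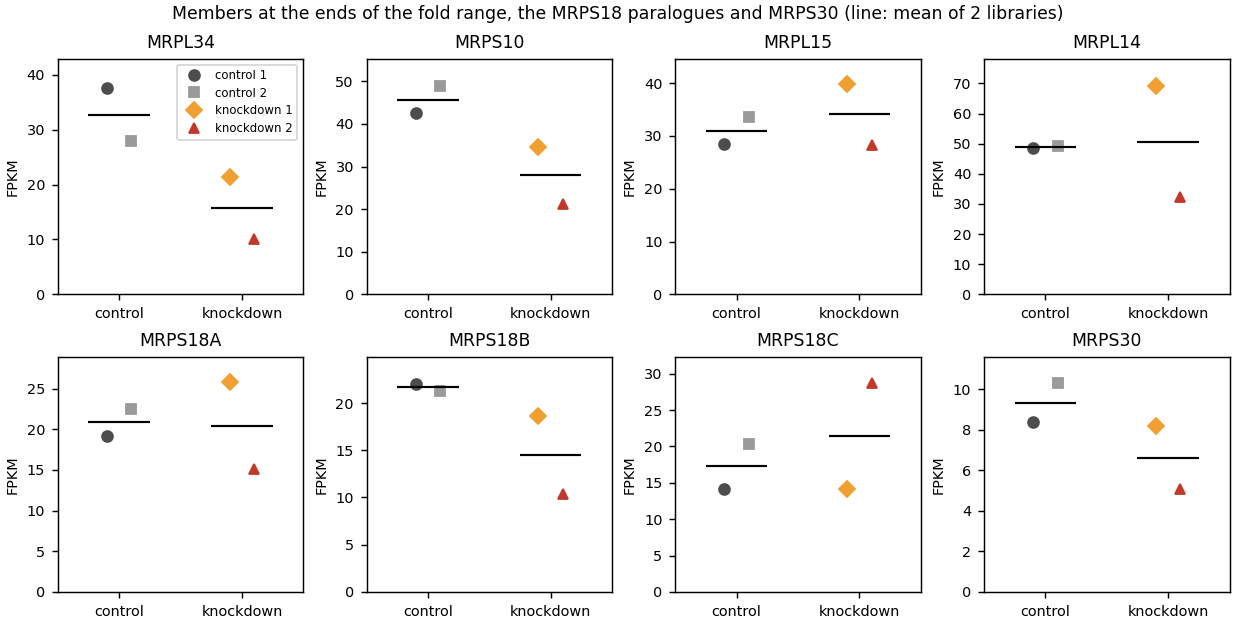
FPKM in each library of the members at the ends of the fold range, the MRPS18 paralogues and MRPS30, each on its own axis from 0, with a line at the mean of the 2 libraries of a group. MRPL34 and MRPS10 are lower in both knockdown libraries, MRPL14 is split between them, and MRPS18C alone is highest in knockdown 2.

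MRPS30, the other MRPS-named protein of the large subunit, had a log2 fold change of −0.31 ± 0.21 (SE), with both knockdown libraries below both controls on TMM-scaled counts. MRPL12 had −0.05 ± 0.26 (SE), its knockdown libraries lying at 0.19 and −0.38 against the controls. MRPL36 had −0.05 ± 0.51 (SE), the largest standard error among the members. MRPS36 was at 31.2, 34.2, 31.6 and 18.9 FPKM, and its log2 fold change of −0.17 ± 0.21 (SE) equalled the MRPS median.

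The genes are scattered over the genome, with 74 placed on 17 chromosomes and at most 10 on any of them. In the RefSeq annotation of Sscrofa11.1, 33.8% of the placed members overlapped another gene, against 36.0% of all placed genes of the table. A further 31.1% overlapped none but had a gene within 1000 bases, against 19.2%. MRPL46 and MRPS11, picked for their position after the values were seen, lie on chromosome 1 with 38 bases between them. MRPL46 was at 23.8, 24.9, 25.2 and 16.6 FPKM and MRPS11 at 39.5, 34.1, 44.9 and 14.8. Both were lowest in knockdown 2, at −0.10 and −0.85 relative to the control mean on TMM-scaled counts. Where members overlap another gene, reads may have been divided between them, since the strandedness of the libraries is not given in the sources used here.

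Mitoribosomal proteins under other names gave values of the same order. Of 6 tested genes, 5 had a negative log2 fold change and the median was −0.11. By edgeR 0 were called, where 0.0% of all tested genes were. DAP3, a GTP-binding protein of the small subunit, was at 30.8, 24.95, 26.9 and 15.95 FPKM, and PTCD3, an RNA-binding protein of the same subunit, at 31.9, 33.4, 34.1 and 18.7. GADD45GIP1, a large subunit protein near the exit of the peptide tunnel, was at 23.5, 15.2, 17.0 and 8.04 FPKM. All 3 were lowest in knockdown 2. LACTB, once counted as a mitoribosomal protein and now known as a filament-forming protease, was highest there, with 6.36, 5.46, 4.47 and 9.35 FPKM.

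Genes that build the mitochondrial ribosome or work on it were not called by edgeR either, where 0.0% of all tested genes were called. Of 44 tested assembly and RNA factors, 32 were negative, with a median log2 fold change of −0.17. Relative to the controls their medians were 0.00 in knockdown 1 and −0.39 in knockdown 2. RMND1, which is needed for mitochondrial translation, was at 13.2, 13.3, 10.1 and 6.79 FPKM, and its log2 fold change was −0.48 ± 0.21 (SE). TRUB2, a pseudouridine synthase, was at 5.44, 5.60, 7.64 and 5.94 FPKM, with 0.48 ± 0.25 (SE). Translation factors were negative in 11 of 12 genes, with a median of −0.19. MTIF2, the initiation factor, was at 15.2, 15.3, 13.6 and 8.0 FPKM, PDF, which removes the formyl group from new peptides, at 5.63, 4.28, 4.33 and 2.09, and TUFM, the elongation factor, at 71.7, 58.3, 66.8 and 34.9. MRRF, the ribosome recycling factor, was the positive exception, with 17.0, 20.8, 15.8 and 23.2 FPKM. Mitochondrial tRNA synthetases had a median of −0.16 with 14 of 19 negative. WARS2, the tryptophan enzyme, was at 7.35, 6.08, 3.57 and 0.44 FPKM, the last resting on 1 count. MARS2, the methionine enzyme, was at 4.77, 4.37, 3.33 and 2.21, and the edgeR adjusted p was 0.606 for both enzymes.

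The lists of mitochondrial DNA genes and of biogenesis regulators had positive median log2 fold changes. Genes of mitochondrial DNA transcription and replication had a median log2 fold change of 0.04 over 15 tested genes, although TFAM, which packages that DNA and starts its transcription, was at 33.0, 33.3, 25.7 and 15.8 FPKM (log2 fold change −0.47 ± 0.20, SE), and POLG, its polymerase, was at 8.27, 9.38, 9.85 and 8.78. Regulators of mitochondrial biogenesis were positive in 11 of 13 genes, with a median of 0.35, but their library medians were 0.06 in knockdown 1 and 0.80 in knockdown 2. MYC, a transcription factor of growth genes, was at 5.64 and 3.02 FPKM in the controls, 15.4 in knockdown 1 and 7.34 in knockdown 2. Its log2 fold change was 1.57 ± 0.39 (SE), with an edgeR adjusted p of 0.414. ESRRA, a nuclear receptor that activates mitochondrial genes, was at 13.8, 16.8, 17.7 and 46.3 FPKM. NRF1, an activator of many mitochondrial protein genes, was at 17.0, 21.0, 18.3 and 27.1. MYCN, a relative of MYC (17.2, 20.7, 18.6 and 6.93 FPKM), and PPARGC1B, a coactivator (2.49, 1.73, 3.01 and 0.71), were lowest in knockdown 2.

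**Figure D5:**
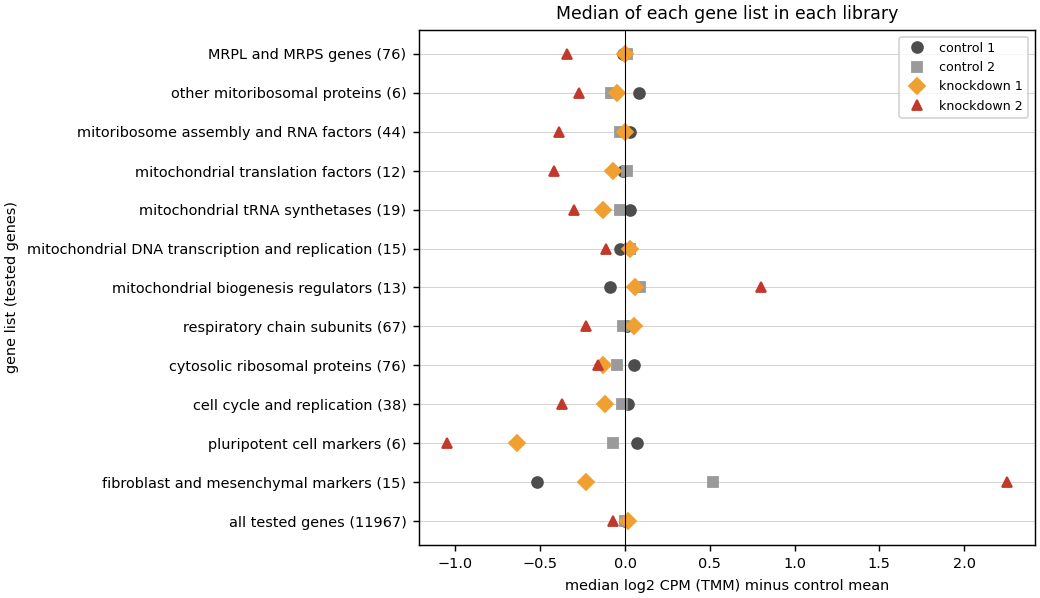
Median log2 CPM (TMM) minus the control mean of each gene list in each library, with the number of tested genes in brackets. MRPL and MRPS genes lie at 0.00 in knockdown 1 and −0.34 in knockdown 2. Near them in knockdown 2 are tRNA synthetases (−0.30), cell cycle genes (−0.37), assembly and RNA factors (−0.39) and translation factors (−0.42). Biogenesis regulators and fibroblast markers lie to the right in that library.

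Gene groups chosen as alike in kind were those of the respiratory chain and the cytosolic ribosome. The list of nuclear-encoded respiratory chain subunits was made by symbol patterns that also cover ATP synthase genes. Its median log2 fold change was −0.09 over 67 tested genes, with medians of 0.05 in knockdown 1 and −0.23 in knockdown 2. Of these, 47 of 67 lay below both controls in knockdown 2, where 47.3% of all tested genes did. NDUFA8, a subunit of complex I, was at 45.7, 37.5, 54.2 and 40.8 FPKM. Cytosolic ribosomal proteins had a median of −0.11 over 76 genes. In knockdown 1 their median was −0.13, with 51 below and 6 above both controls (33.1% and 35.9% of all tested genes). In knockdown 2 it was −0.16, with 41 below and 30 above (47.3% and 40.0% of all tested genes). RPS29 was at 1272, 1138, 890 and 531 FPKM and RPL36A at 1211, 1062, 817 and 538. The standard deviation of the log2 fold changes was 0.48 for cytosolic ribosomal proteins and 0.28 for the respiratory chain, against 0.20 for the members. Over the other mitochondrial lists it ran from 0.17 for translation factors to 0.51 for biogenesis regulators, with 0.23 for assembly and RNA factors. Of the respiratory chain and cytosolic ribosomal genes, 0 were called by edgeR, where 0.0% of all tested genes were. These differences between lists were not tested.

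Of 38 tested cell cycle genes, 0 were called by edgeR, where 0.0% of all tested genes were. Of the 38, 30 had a negative log2 fold change (48.8% of all tested genes did). The library medians of this list were −0.12 for knockdown 1 and −0.37 for knockdown 2. CCNB1, the mitotic cyclin, was at 124, 122, 93.2 and 46.6 FPKM, and CENPA, the centromeric histone, at 34.9, 37.2, 28.5 and 17.6. The fibroblast list had medians of −0.23 and 2.25 in the knockdown libraries, and its control medians were −0.52 and 0.52, while those of the members were −0.01 and 0.01. COL6A2, a collagen, was at 1.19, 2.47, 3.29 and 8.24 FPKM, and THY1, a surface antigen, at 9.79, 7.89, 3.38 and 5.80. Among the defining fibroblast genes, DCN was listed at 0 in both knockdown libraries, LUM at 0 in 3 libraries, and COL1A1 was at 17.6, 52.8, 56.5 and 206 FPKM. Pluripotency markers had a median log2 fold change of −0.95 over 6 tested genes, which include the targeted LIN28A itself at −2.92. The others were SOX2 at 0.09, DNMT3B at −0.13, POU5F1 at −0.29, SALL4 at −1.62 and EPCAM at −3.14. SALL4 was at 19.2, 19.2, 7.71 and 3.25 FPKM. EPCAM was at 2.00, 3.42, 0.10 and 0.68 FPKM, its knockdown values resting on 1 and 2 counts. The part of any of these in the members' values was not tested.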

How the data were processed

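RNA was selected with oligo-dT and sequenced on BGISEQ-500, per the labels' protocols. Bowtie2 and RSEM 1.2.12 with pig build Sscrofa11.1 were used, per the submitters' processing notes; the sources used here name no settings and no strandedness. RSEM divides shared reads between genes, so 10 members have fractional counts. The expected counts deposited by the authors are not normalised between libraries. The authors also deposited a normalised value per gene, taken here as FPKM because of its numbers, since the header names no unit: in the 35 members with at least 50 counts in every library, the length implied by count and FPKM differed between libraries by a median of 1.02-fold, at most 1.48-fold.

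Expected counts were rounded and tested with edgeR 4.0.16 in R 4.3.3: TMM (factors 1.10, 1.07, 1.07 and 0.798), the filterByExpr filter (11967 genes kept), and a quasi-likelihood fit with no covariate (2 residual degrees of freedom plus 3.30 shared), adjusted over all tested genes by Benjamini-Hochberg. The SE of a log2 fold change was not fitted directly. It was taken as the absolute log2 fold change divided by the square root of the test's F statistic. The fit was also run on counts simulated with known fold changes and with less variation between libraries than these data have. That run does not show how often true changes would be called here. In CPM, the limit that a count of 0 allows (3 counts) was 0.253 and 0.421 for the controls, 0.372 for knockdown 1 and 1.25 for knockdown 2. For values of single libraries, TMM-scaled log2 CPM was computed (prior count 2) and the control mean subtracted. Alternatives were other normalisations, no filter, DESeq2 1.42.0, limma 3.58.1 on log2 FPKM with pseudocounts of 1 and 0.1, each library left out, and a replicate block.

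All identifiers matched RefSeq, which gave positions. The genes named are LIN28A, the 6 members with the most positive and the 6 with the most negative log2 fold change, members at an unadjusted p under 0.05, the 5 highest and 3 lowest in mean FPKM, MRPL12, MRPS30 and the MRPS18 paralogues, and the 2 with the smallest p in each other list, of which 1 is not reported here. Further genes of the other lists, overlapping genes, MRPL46, MRPS11 and MRPS36 were named after the values were seen. Members and lists were chosen with earlier results of these data known.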

Additional observations from a re-analysis of the deposited data

How the results depend on the processing

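With a replicate block from the last digit of the library names, which the labels do not tie to a shared culture or day and which leaves 1 residual degree of freedom, edgeR called 1338 genes (11.2%, 2.56% lower) against 0, and 1 member, MRPL34 (−0.88, adjusted p = 0.0216). Same-numbered libraries deviated together (r = 0.56 across tested genes, which are not independent replicates), and library 2 is the shallower in both groups. This fit was added after seeing the data. The other alternatives with every library kept called 0 members, where they called from 0.0% to 1.16% of all tested genes. The members' median was negative in every alternative. The large and small subunit medians, −0.12 and −0.17, were −0.36 and −0.43 with limma on log2(FPKM + 1), −0.38 and −0.46 on log2(FPKM + 0.1), −0.30 and −0.35 with total counts, and −0.21 and −0.26 with upper-quartile factors. The median of all genes was then itself at −0.18, −0.22, −0.18 and −0.08, against 0.01. Leaving out each library in turn, the large subunit median ranged from −0.34 (without knockdown 1) to 0.01 (without knockdown 2), the small from −0.39 to −0.08, and their difference from 0.05 to 0.09, against 0.05 in all libraries. Members with a negative log2 fold change ranged from 43 to 71 over these fits (45.3% to 54.8% of all genes) and from 56 to 74 over the other alternatives (46.8% to 67.2%). Where a group is left with 1 library, it is assumed to vary like the other group. Members below both controls in knockdown 2 ranged from 62 to 75 over the scalings, and in knockdown 1 from 25 to 31; the alternatives for these 3 counts were chosen after seeing the data.

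For members near no change the sign depended on the setting; the cause was not tested. With total counts the log2 fold changes were −0.03 for MRPS2, 0.00 for MRPS18A and −0.16 for MRPL17, which was −0.06 with upper-quartile factors. With limma on log2(FPKM + 1) they were −0.14 for MRPL57, −0.05 for MRPS2 and MRPL14, −0.07 for MRPS18A and −0.18 for MRPL17, and on log2(FPKM + 0.1) −0.16, −0.05, −0.05, −0.07 and −0.18. Leaving out each library in turn, the lowest and highest values were −0.31 and 0.41 for MRPL57, −0.02 and 0.32 for MRPS18A, −0.13 and 0.53 for MRPL14, −0.75 and 0.22 for MRPL36, −0.33 and 0.02 for MRPL37, −0.15 and 0.76 for MRPS18C, −0.03 and 0.13 for MRPL17, −0.28 and 0.02 for MRPL50, and −0.39 and 0.17 for MRPL12. Of the other values for named genes, 225 kept their direction and side of the threshold, and LIN28A passed it with DESeq2 (−2.91) and with the block (−3.08). Depth limits knockdown 2 most, with a median of 46.5 counts a member.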
